A study of Mus musculus with 12 samples.

Results

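The potassium, sodium and calcium channel genes described here were taken from the count table by symbol. An entry was included when it named 1 locus and one of its symbols began with Kcn, with Scn and a digit, or with Cacn. This gave 129 entries, carrying 131 distinct channel symbols, of 20114 single-locus entries in all. RNA was sequenced from primary mammary epithelial cells of adult female mice aged 9 weeks, sorted by fluorescence-activated cell sorting. Their mixed strain background joined Swiss Webster, C57BL/6 and 129X1/SvJ. Recombined cells came from mT-mG/SmoM2;MMTV-Cre mice and were EGFP positive and SmoM2 positive (4 libraries). Unrecombined cells came from the same genotype but were tdTomato positive and SmoM2 negative (4 libraries). Wild type cells came from mT-mG/SmoM2;+ mice, which carry both alleles but no Cre (4 libraries).

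Smoothened is a membrane protein that relays Hedgehog signals into the cell, and SmoM2 is its constitutively active version. The mT-mG reporter marks cells red until Cre turns them green. All 3 groups carry the mT-mG and SmoM2 alleles. Cre was driven by the MMTV promoter, which is active in mammary epithelium and in other glands, the salivary gland among them. Recombined and wild type cells differ at once in SmoM2, in Cre and in the color they were sorted by. No group of green cells lacks SmoM2, and these cannot be told apart. No label ties a library to an animal, so p values reflect only the spread among these libraries, which may be technical.

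Ion channels are membrane pores that let chosen ions pass. A pore-forming alpha subunit sets the ion and the gate, and accessory subunits set trafficking, opening and closing. Potassium channels hold the membrane potential negative and, in secretory epithelia, supply the driving force for chloride and fluid transport. Voltage-gated calcium channels admit the calcium that starts contraction in muscle and muscle-like cells, and voltage-gated sodium channels carry the upstroke of the action potential in nerve and muscle. Mammary ducts hold luminal cells, which line the lumen, and contractile basal or myoepithelial cells, which share many proteins with smooth muscle.

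Total counts per library lay between 19581993 and 34779433, and 1 read was worth 0.0299 to 0.0538 CPM (counts relative to library size). CPM values below use TMM scaling, a trimmed mean of log ratios between libraries, and each mean is given ± SD over 4 libraries. Hedgehog pathway genes, a check of the labels, were higher in recombined cells. Smo averaged 58.1 ± 11.5 CPM in recombined cells, 30.4 ± 4.41 in unrecombined cells and 28.3 ± 7.05 in wild type cells, and Ptch1, a Hedgehog target, 434 ± 284, 44.8 ± 15.7 and 36.3 ± 1.54 CPM in the same order. The locus of Gli1, which also names Arhgap9, averaged 21.3 ± 8.10, 5.91 ± 2.53 and 3.56 ± 1.46 CPM. All 3 passed in both comparisons with recombined cells, with edgeR adjusted p of at most 0.0234. The first principal component (30.8% of the variance) set recombined libraries 3 and 4 apart, and these had counts at 14256 and 14601 loci, against 15289 to 16814 in the other 10 libraries. Salivary gland transcripts were found in 5 libraries: recombined 1 and 2, unrecombined 1 and 2, and wild type 2. Summed Dcpp1 and Smr3a reached 144 and 1994 CPM in those recombined libraries, 132 and 8420 CPM in those unrecombined libraries and 3266 CPM in wild type 2, against at most 0.108 CPM in the other 7. The column names of the libraries fall into separate runs of numbers. Recombined 3 and 4, unrecombined 3 and 4 and wild type 4 bear the higher numbers, and all 5 libraries with salivary transcripts the lower. What the runs mark is not given, and their part in these values was not tested.

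The makeup of the sorted cells by marker genes also differed between the groups. The 10 basal and myoepithelial markers summed to 1851–7827 CPM in recombined, 490–1132 in unrecombined and 863–1054 in wild type libraries, and 9 of the 10 rose in recombined over wild type cells. The 8 luminal hormone-sensing markers summed to 609–1796, 2602–4383 and 3077–5920 CPM in the same order, with 6 lower in recombined than in wild type cells. The 8 fibroblast markers summed to 205–571, 5113–7268 and 1387–3392 CPM, with all 8 lower in recombined cells in both comparisons. In these bulk samples, fewer cells of a type and less RNA per cell cannot be told apart. The 4 pan-epithelial markers summed to 2040–3774, 2821–4808 and 3364–5428 CPM, so the labelled epithelium was present in every library, along with stromal transcripts.

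**Figure D1:**
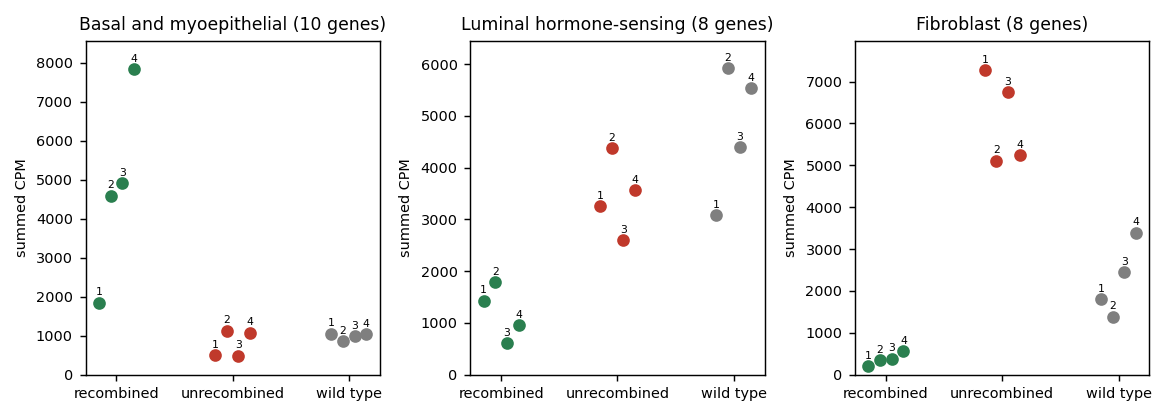
Summed CPM of marker genes of 3 cell types (vertical axis) in recombined, unrecombined and wild type libraries, with a point per library and its number. Basal markers were higher in each recombined library, at 1851 CPM or more, than in any other library, and fibroblast markers were lower in each recombined library, at 571 CPM or less.

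Of the 129 channel entries, 52 were expressed, defined as at least 1 CPM in 4 or more of the 12 libraries. That is 40.3% of them, against 62.8% of all single-locus entries. The expressed entries were 12 of 38 voltage-gated potassium, 6 of 15 inward rectifier, 4 of 13 two-pore and 4 of 8 calcium- or sodium-activated potassium channels, and 9 of 17 potassium accessory subunits. They also included 5 of 10 sodium alpha and 2 of 4 sodium beta subunits. Among calcium channel subunits, 5 of 10 alpha1, 1 of 4 alpha2delta, 4 of 4 beta and 0 of 6 gamma subunits were expressed. In 16 entries all 12 libraries reached 1 CPM. No expressed entry reached 1 CPM in libraries of 1 group only. Counted within a group, 22 entries reached 1 CPM in all 4 recombined libraries, 29 in all 4 unrecombined libraries and 29 in all 4 wild type libraries. The same count by group was not made over all entries. Recombined libraries 3 and 4 had counts at fewer loci in all, 14256 and 14601, so the lower count is not read as particular to channels.

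Of the 77 entries that were not expressed, 44 stayed under 1 CPM in every library and 33 reached it in 1 to 3 libraries. Kcna10 and Kcnk15 had no count in any library. At the edge of the rule, the fourth highest CPM was 1.04 for Kcnk2, 1.10 for Kcne3 and 1.12 for Kcna6, which were counted as expressed, and 0.916 for Kcng3, 0.836 for Kcnj14 and 0.791 for Scn4a, which were not. Several genes outside the rule were carried by few libraries. Kcng3, a modulatory subunit that forms no channel by itself, had 0.119, 1.10, 1.94 and 7.67 CPM in recombined libraries 1 to 4, and between 0 and 0.916 CPM in the other 8 libraries.

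**Figure D2:**
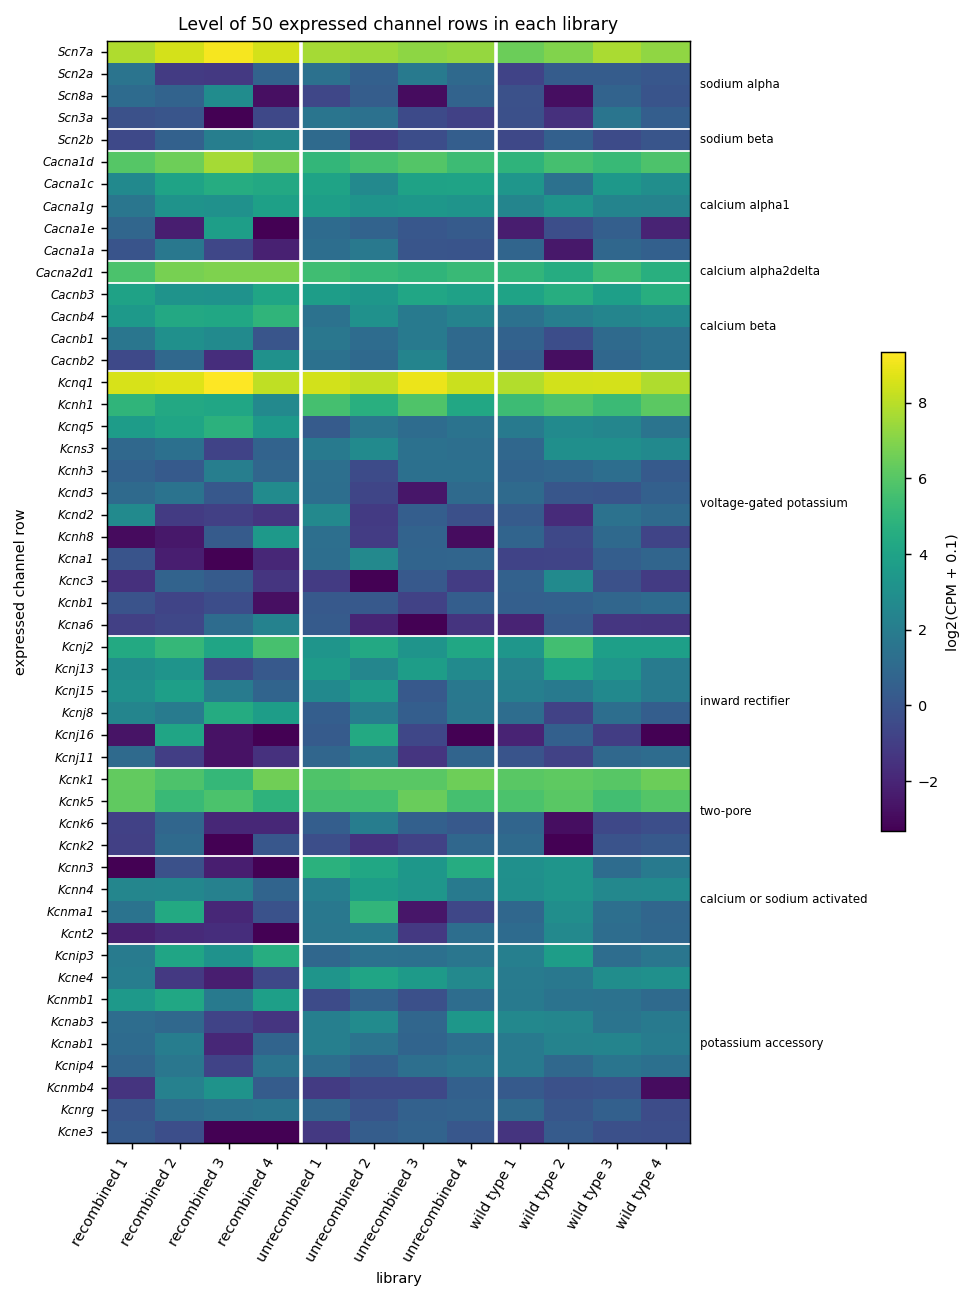
Level of 50 of the 52 expressed channel entries (rows, grouped by structural class and sorted by mean CPM) in the 12 libraries (columns), as log2(CPM + 0.1) by color. The row of Scn7a is brightest in the 4 recombined libraries, and Kcnn3 is dark in the 4 recombined libraries.

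Only 2 entries averaged over 100 CPM and 10 averaged over 10 CPM. One of the 2 was the locus of Kcnq1, a voltage-gated potassium channel of secretory epithelia and heart, but it also names Kcnq1ot1, a long noncoding RNA of the same region, and the reads cannot be divided between them. This locus had 377, 426, 645 and 277 CPM in recombined libraries 1 to 4, 352, 278, 495 and 322 in unrecombined and 232, 354, 369 and 230 in wild type libraries. The groups overlapped, and neither comparison with recombined cells passed the threshold. Its log2 fold change was 0.54 ± 0.260 (SE) over wild type (adjusted p = 0.258) and 0.25 ± 0.260 over unrecombined cells (adjusted p = 0.676).

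To set levels of different genes side by side, CPM was divided by kilobases of exon. Over all 12 libraries, Kcnk1 at a mean of 31.6 CPM per kb, Scn7a at 31.4 and Kcnk5 at 16.0 were the highest of the channel genes whose entries name 1 symbol. The order of Kcnk1 and Scn7a differed by group: Scn7a averaged 51.6 CPM per kb in recombined, 23.0 in unrecombined and 19.6 in wild type cells, and Kcnk1 29.8, 32.0 and 33.1 CPM per kb in the same order. Kcnj13 at 5.91, Kcnh1 at 4.92, Cacna2d1 at 4.46, Kcnj2 at 4.03 and Cacnb3 at 3.84 CPM per kb followed. Kcnk1 and Kcnk5 are two-pore channels, which conduct at rest and set the resting potential, Kcnj2 and Kcnj13 are inward rectifiers, and Kcnh1 is a voltage-gated channel of the ether-a-go-go family.

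Recombined cells were compared with wild type cells and with unrecombined cells of the same genotype. Both comparisons share the 4 recombined libraries. A gene was called when its Benjamini-Hochberg adjusted p in the quasi-likelihood test of edgeR, over all 14039 loci tested, was under 0.05. Of 68 channel entries tested, 7 (10.3%) were higher and 2 (2.94%) lower in recombined than in wild type cells, against 4.17% and 2.38% of all loci. Against unrecombined cells, 8 (11.8%) were higher and 3 (4.41%) lower, against 3.08% and 2.14% of all loci. Their median log2 fold change was 0.52 over wild type cells, where that of all loci was -0.02, and 0.08 over unrecombined cells, where that of all loci was -0.01. The called genes came from most classes. Calcium channel subunits gave 3 calls of 12 tested entries in each comparison, all higher. The 4 tested two-pore and the 3 tested sodium beta subunits gave none.

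**Figure D3:**
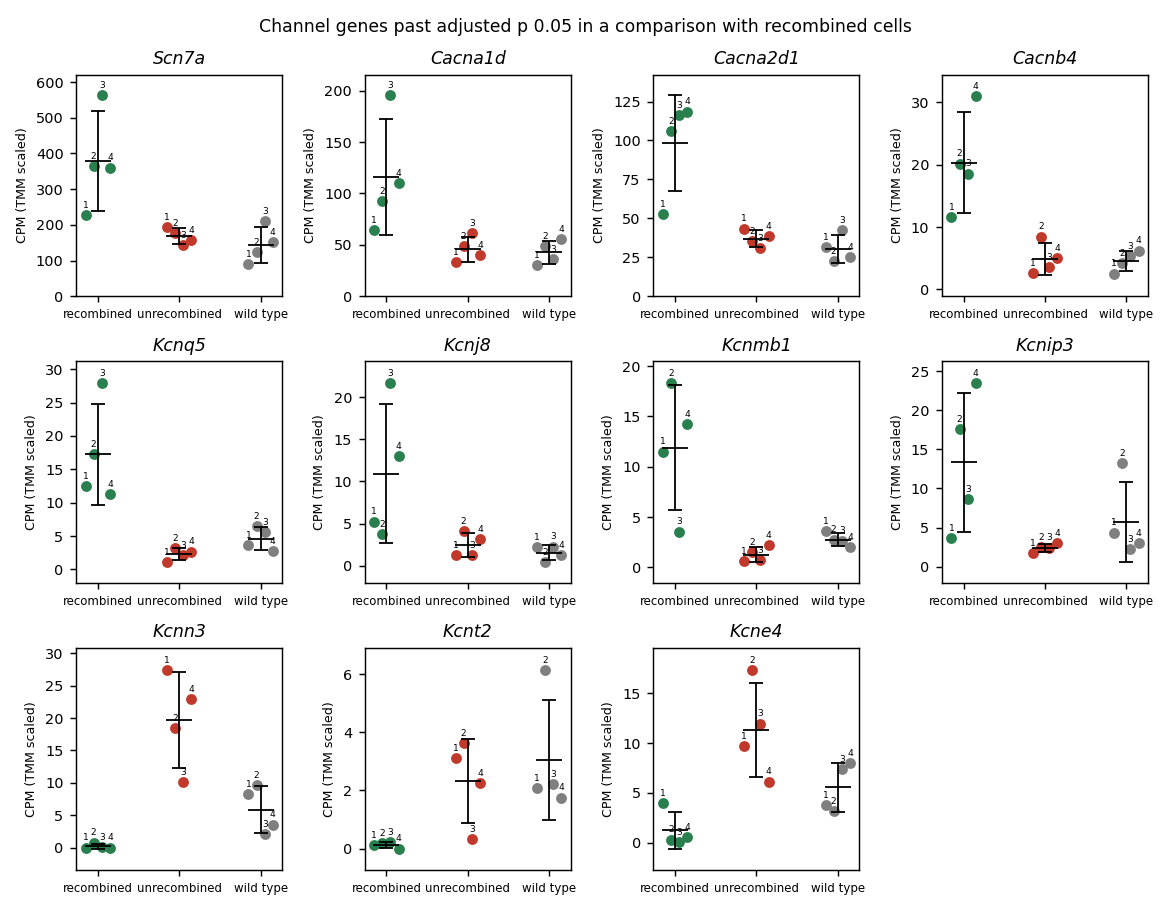
CPM (vertical axis, own scale per panel) of 11 of the 12 channel genes called in either comparison, in recombined, unrecombined and wild type libraries, with a numbered point per library and bars for mean ± SD. Scn7a, Cacna1d, Cacna2d1, Cacnb4 and Kcnq5 were higher in all 4 recombined libraries than in any other library, and Kcnn3 and Kcnt2 were lower in all 4.

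Among the sodium channel alpha subunits, Scn7a encodes Nax, a sodium-sensing relative of the voltage-gated sodium channels (listed at mm9 chromosome 2, start 66511482). It had 227, 365, 564 and 360 CPM in recombined libraries 1 to 4, 195, 177, 144 and 158 in unrecombined and 90.0, 124, 211 and 151 in wild type libraries. All 4 recombined libraries lay above the other 8, with recombined library 1 the nearest to them. Scn7a rose in recombined cells, with a log2 fold change of 1.40 ± 0.276 (SE) over wild type (adjusted p = 0.00853) and of 1.17 ± 0.275 over unrecombined cells (adjusted p = 0.0225). The call over unrecombined cells was lost without recombined library 3 (log2 0.93, adjusted p = 0.0658) or without unrecombined library 2, 3 or 4, where adjusted p lay between 0.0525 and 0.0722.

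Scn2a (in an entry that also names Scn2a1 and AK143234), Scn3a and Scn8a, alpha subunits known from neurons, were expressed but not called, and their group means lay between 0.567 and 2.69 CPM. Among beta subunits, which modulate gating and adhesion, Scn2b averaged 2.91 ± 2.29 CPM in recombined, 1.09 ± 0.698 in unrecombined and 0.881 ± 0.367 in wild type cells, with overlapping groups and no call.

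Among the calcium channel subunits, Cacna1d encodes an L-type alpha1 pore (chromosome 14, start 30822185). Its entry also names Chdh, choline dehydrogenase, so reads of either gene may be counted. It had 64.6, 92.7, 196 and 110 CPM in recombined, 33.3, 48.6, 61.3 and 40.3 in unrecombined and 30.0, 48.9, 36.4 and 55.3 in wild type libraries. Recombined libraries did not overlap with those of either other group, and recombined library 1 was just above unrecombined library 3. The entry rose by a log2 fold change of 1.44 ± 0.315 over wild type (adjusted p = 0.0143) and of 1.34 ± 0.314 over unrecombined cells (adjusted p = 0.0225). The call over unrecombined cells was lost without recombined library 3 (log2 0.98, adjusted p = 0.0617) or without unrecombined library 1, 2 or 4, with adjusted p between 0.0560 and 0.0804. The other L-type pore that was expressed, Cacna1c, averaged 16.3 ± 7.17 CPM in recombined, 13.4 ± 4.93 in unrecombined and 7.66 ± 3.69 in wild type cells and was not called. Cacna1g, a T-type pore that opens near rest, averaged 8.72 ± 4.75, 10.5 ± 1.95 and 6.18 ± 2.08 CPM in the same order, also with no call.

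Cacna2d1 encodes the alpha2delta subunit that carries alpha1 pores to the membrane and binds gabapentin (chromosome 5, start 15440508). It had 52.9, 106, 116 and 119 CPM in recombined, 43.5, 35.3, 31.0 and 38.4 in unrecombined and 31.6, 22.6, 42.5 and 25.3 in wild type libraries. Recombined libraries 2 to 4 lay close together and library 1 stood between them and the rest, with no overlap. Cacna2d1 rose by 1.69 ± 0.264 on the log2 scale over wild type (adjusted p = 0.00188) and by 1.41 ± 0.262 over unrecombined cells (adjusted p = 0.00531), and no single library left out ended either call. Cacnb4, a cytoplasmic beta subunit that aids assembly and gating (chromosome 2, start 52280516), shares its entry with the transcript AK079699. It had 11.6, 20.2, 18.6 and 31.0 CPM in recombined, 2.61, 8.48, 3.56 and 4.99 in unrecombined and 2.52, 4.22, 5.28 and 6.24 in wild type libraries. Recombined libraries were above all 8 others, and the entry rose by 2.15 ± 0.428 over wild type (adjusted p = 0.00869) and by 2.05 ± 0.426 over unrecombined cells (adjusted p = 0.0109). Cacnb3, the beta subunit with the highest mean CPM per kb, went without a call at 12.6 ± 4.63 CPM in recombined, 14.1 ± 3.30 in unrecombined and 19.4 ± 5.19 in wild type cells. Gamma subunits were near the floor. Cacng7, one of them, had 0, 0.183, 0 and 1.53 CPM in recombined libraries, 0.0359 to 0.528 in unrecombined and 0 to 0.323 in wild type libraries.

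The sodium and calcium channel genes that rose did so alongside the basal markers. Recombined library 1, the lowest of the 4 recombined libraries in Scn7a, Cacna1d, Cacna2d1 and Cacnb4, also had the lowest basal marker sum of the 4, at 1851 CPM against 4590, 4906 and 7827. Recombined library 4, with the highest sum, was the highest in Cacna2d1 and Cacnb4. Scn7a and Cacna1d were instead highest in recombined library 3, at 564 and 196 CPM, against 360 and 110 CPM in library 4. Among unrecombined libraries, library 3 had the lowest basal sum, 490 CPM, but the highest Cacna1d, 61.3 CPM. Unrecombined library 1, at 503 CPM, had the highest Scn7a and Cacna2d1 of its group, 195 and 43.5 CPM. Cacnb4 was highest in unrecombined library 2, 8.48 CPM, which also had the highest basal sum of its group, 1132 CPM. The part of cell makeup in these values was not tested.

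The called voltage-gated potassium channel was Kcnq5. This gene, which carries an M-type current that steadies the membrane potential (chromosome 1, start 21388483), had 12.5, 17.2, 27.9 and 11.3 CPM in recombined, 1.16, 3.17, 2.12 and 2.68 in unrecombined and 3.64, 6.54, 5.54 and 2.80 in wild type libraries. The recombined libraries did not overlap with the others, and wild type libraries were mostly above the unrecombined ones. Kcnq5 rose by 1.89 ± 0.413 on the log2 scale over wild type (adjusted p = 0.0141) and by 2.91 ± 0.431 over unrecombined cells (adjusted p = 0.00106). Without wild type library 4 the first call was lost (log2 1.71, adjusted p = 0.0530). Kcnh1 did not pass in either comparison. It had 31.1, 19.6, 17.7 and 6.10 CPM in recombined, 49.3, 24.9, 58.0 and 18.9 in unrecombined and 40.8, 56.1, 39.1 and 71.0 in wild type libraries, and its recombined libraries lay below all wild type ones. Its log2 fold change over wild type was -1.47 ± 0.442 (adjusted p = 0.0633), and with the replicate block it passed at -1.70 (adjusted p = 0.0443). The block joins libraries by number, and wild type numbers do not pair with recombined ones.

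The called inward rectifier, Kcnj8, is the pore of an ATP-sensitive potassium channel known from pericytes and vascular smooth muscle (chromosome 6, start 142513458). It had 5.23, 3.78, 21.7 and 13.0 CPM in recombined, 1.27, 4.07, 1.26 and 3.19 in unrecombined and 2.18, 0.464, 2.27 and 1.29 in wild type libraries. Recombined libraries 3 and 4 were the highest of the 12, and recombined library 2 was below unrecombined library 2. Kcnj8 rose over wild type cells by 2.81 ± 0.668 on the log2 scale (adjusted p = 0.0221), and its change over unrecombined cells did not pass at 2.15 ± 0.649 (adjusted p = 0.0761). The first call was lost without recombined library 3 (log2 2.25, adjusted p = 0.0702), wild type library 2 (2.51, 0.0569) or wild type library 4 (2.73, 0.0761). The second passed without recombined library 1 (log2 2.38, adjusted p = 0.0483) or recombined library 2 (2.44, 0.0479). The 6 pericyte markers summed to 47.0–96.2 CPM in recombined, 85.9–104 in unrecombined and 54.6–90.9 in wild type libraries, with 1 of the 6 (Cspg4) higher and 1 (Pdgfrb) lower in recombined cells in each comparison. Rgs5 had 4.12 to 17.6 CPM in recombined, 10.6 to 19.7 in unrecombined and 4.92 to 13.1 in wild type libraries, and the entry of Notch3 17.7 to 47.7, 34.6 to 36.2 and 33.6 to 43.9 CPM. Higd1b was near 0 in all groups, at no more than 0.0412, 0.113 and 0.251 CPM in the same order. The entry of Abcc9, which encodes the regulatory subunit that pairs with Kcnj8, had 8.90 to 23.3 CPM in recombined, 14.8 to 20.6 in unrecombined and 5.73 to 22.6 in wild type libraries, with overlap. Kcnj2, another inward rectifier, had 20.6, 34.6, 17.6 and 50.1 CPM in recombined, 9.56, 19.97, 9.31 and 18.3 in unrecombined and 9.98, 45.5, 14.1 and 14.05 in wild type libraries, with overlap and no call.

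No two-pore channel was called. Kcnk1 had 79.6, 55.5, 34.2 and 97.2 CPM in recombined, 58.1, 68.7, 67.2 and 91.7 in unrecombined and 68.5, 72.1, 65.5 and 90.1 in wild type libraries. The ranges of the groups overlapped. Its log2 fold change was -0.15 ± 0.265 over wild type and -0.10 ± 0.265 over unrecombined cells, with adjusted p of 0.806 and 0.895. Kcnk5, an acid-sensitive background channel of epithelia, averaged 49.0 ± 19.8 CPM in recombined, 57.3 ± 20.6 in unrecombined and 57.3 ± 9.58 in wild type cells and was not called either.

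Calcium- and sodium-activated potassium channels held both genes that were lower in recombined cells in each comparison. Kcnn3, a small-conductance channel opened by intracellular calcium (chromosome 3, start 89324085, in an entry that also gives its older name SK3), had 0, 0.770, 0.108 and 0 CPM in recombined, 27.5, 18.5, 10.1 and 22.9 in unrecombined and 8.21, 9.68, 2.09 and 3.55 in wild type libraries. The 3 groups did not overlap, and unrecombined libraries were the highest. A count of 0 in recombined libraries 1 and 4 allows a level of up to 0.0896 and 0.124 CPM, counting error only. Kcnn3 fell in recombined cells, with a log2 fold change of -4.70 ± 0.959 over wild type (adjusted p = 0.0102) and of -6.44 ± 1.02 over unrecombined cells (adjusted p = 0.00179). No single library left out ended either call, and without recombined library 2 the values were -7.52 and -9.26. Kcnn4, the intermediate-conductance relative, averaged 4.35 ± 1.91 CPM in recombined, 7.64 ± 4.50 in unrecombined and 7.37 ± 1.62 in wild type cells and was not called.

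Kcnt2, a sodium-activated channel (chromosome 1, start 142142833), had 0.119, 0.183, 0.215 and 0 CPM in recombined, 3.11, 3.62, 0.323 and 2.24 in unrecombined and 2.08, 6.15, 2.23 and 1.76 in wild type libraries. The recombined libraries were below all others, though unrecombined library 3 came near them. Kcnt2 fell with a log2 fold change of -4.53 ± 0.946 over wild type (adjusted p = 0.0113) and of -4.14 ± 0.933 over unrecombined cells (adjusted p = 0.0183). Without wild type library 2 the first value was -3.93 (adjusted p = 0.0363), and without unrecombined library 1 the second was -3.96 (adjusted p = 0.0533). Kcnn3 and Kcnt2 moved alongside the 8 fibroblast markers, all of which fell in recombined cells in both comparisons. Luminal hormone-sensing markers fell too, with 6 of the 8 lower than in wild type cells and 3 than in unrecombined cells. Their sum and Kcnt2 were both highest in wild type library 2, at 5920 and 6.15 CPM. Outside recombined cells both were lowest in unrecombined library 3, at 2602 and 0.323 CPM. Wild type library 4, with a luminal sum of 5534 CPM, had 1.76 CPM of Kcnt2. The highest fibroblast sums, like the highest Kcnn3 levels, were in unrecombined libraries. Within groups the order differed. Unrecombined library 1 was the highest of its group in both, at 7268 CPM of fibroblast markers and 27.5 CPM of Kcnn3. Unrecombined library 3 had the lowest Kcnn3 of its group, 10.1 CPM, with a fibroblast sum of 6748 CPM. Wild type library 2 had the lowest fibroblast sum of its group, 1387 CPM, and the highest Kcnn3, 9.68 CPM. Kcnt2 averaged 2.32 ± 1.45 CPM in unrecombined and 3.05 ± 2.08 in wild type cells, and unrecombined library 3, with a fibroblast sum of 6748 CPM, had 0.323 CPM of it. Within the recombined libraries Dcn had 145 to 419 and Col1a2 24.9 to 105 CPM, and the other 6 fibroblast markers between 0.0597 and 30.9 CPM. The part of stromal or luminal cells in these values was not tested.

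Among the potassium channel accessory subunits, Kcnmb1 is the beta subunit that makes the large-conductance calcium-activated channel of smooth muscle more sensitive to calcium (chromosome 11, start 33863012). It had 11.5, 18.3, 3.55 and 14.2 CPM in recombined, 0.652, 1.51, 0.755 and 2.17 in unrecombined and 3.58, 2.75, 2.66 and 2.01 in wild type libraries. Recombined libraries 1, 2 and 4 were far above the rest, and recombined library 3 was just under wild type library 1. Kcnmb1 rose by 2.11 ± 0.514 on the log2 scale over wild type (adjusted p = 0.0245) and by 3.22 ± 0.540 over unrecombined cells (adjusted p = 0.00261). The call over wild type cells was lost without recombined library 2 (log2 1.83, adjusted p = 0.0726) or 4 (2.02, 0.0555), and without wild type library 2, 3 or 4, with adjusted p between 0.0655 and 0.0856. Kcnma1, the pore that Kcnmb1 joins, was not called. Its entry, which also gives the older name Slo, had 2.69, 20.8, 0.162 and 0.824 CPM in recombined, 3.26, 31.8, 0.0719 and 0.543 in unrecombined and 1.77, 7.62, 2.40 and 1.72 in wild type libraries, so that library 2 was the highest of each group.

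Kcnip3, a calcium-binding protein that joins Kv4 channels and also acts as a transcriptional repressor (chromosome 2, start 127282233), had 3.70, 17.6, 8.67 and 23.5 CPM in recombined, 1.77, 2.52, 2.44 and 2.99 in unrecombined and 4.36, 13.2, 2.23 and 3.05 in wild type libraries. It rose over unrecombined cells, with which it did not overlap, by 2.45 ± 0.621 on the log2 scale (adjusted p = 0.0336). Over wild type cells, with which it overlapped, the value was 1.23 ± 0.595 (adjusted p = 0.266). The call over unrecombined cells was lost without recombined library 2 (log2 2.29, adjusted p = 0.0723) or 4 (2.03, 0.1002), or without any 1 of the 4 unrecombined libraries, with adjusted p between 0.0742 and 0.109. Kcne4, a small subunit that inhibits Kcnq1 and other channels (chromosome 1, start 78813523), had 3.97, 0.330, 0.108 and 0.577 CPM in recombined, 9.74, 17.4, 11.97 and 6.15 in unrecombined and 3.75, 3.21, 7.37 and 8.03 in wild type libraries. Recombined library 1 lay within the wild type range and the other 3 below both groups. Kcne4 fell with a log2 fold change of -3.14 ± 0.821 over unrecombined cells (adjusted p = 0.0393), while -2.13 ± 0.793 over wild type cells did not pass (adjusted p = 0.140).

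The Kcne4 calls depended on single libraries. Without recombined library 1 the change over wild type cells passed at -4.00 (adjusted p = 0.00156), and that over unrecombined cells was -5.02. The call over unrecombined cells was lost without recombined library 2, 3 or 4 (adjusted p between 0.0628 and 0.109), without any 1 of the unrecombined libraries (0.0520 to 0.0982), or without wild type library 1, 3 or 4 (0.0515 to 0.0591). Kcnab3, a cytoplasmic beta subunit of voltage-gated potassium channels, averaged 1.21 ± 0.968 CPM in recombined, 5.73 ± 3.57 in unrecombined and 4.39 ± 1.48 in wild type cells. Its change of -2.22 ± 0.672 over unrecombined cells did not pass (adjusted p = 0.0777), and with the replicate block it did, at -2.34 (adjusted p = 0.0492).

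**Figure D4:**
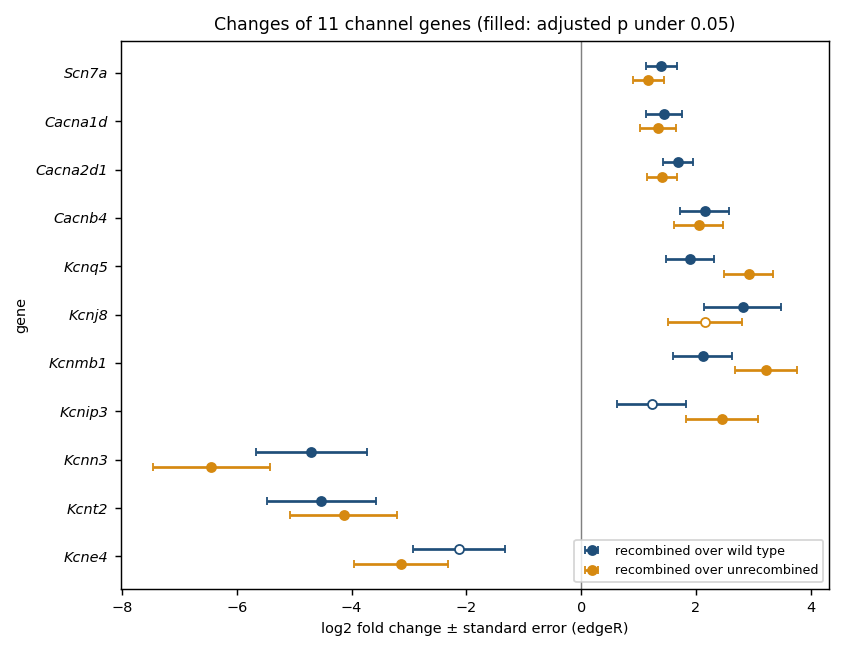
Log2 fold change ± SE from edgeR (horizontal axis) of 11 of the 12 called channel genes, for recombined over wild type cells and recombined over unrecombined cells, with filled points where adjusted p was under 0.05. Each of the 11 genes lies on the same side of 0 in both, from Kcnmb1 at 3.22 to Kcnn3 at -6.44.

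Promoter sequences were set beside these values for 3 called genes, chosen after their values were seen: Cacnb4, because it alone of the called genes with a tabulated window had the searched motif, and Kcnmb1 and Kcnn3, because they had the largest rise and the largest fall over unrecombined cells. Each line holds 300 bases of the RefSeq annotation of GRCm38.p6, from 250 before to 50 after a transcription start, 5′ to 3′ on the strand of the gene. Capitals mark GACCACCCA, the consensus bound by Gli factors, which was searched on both strands (reverse complement TGGGTGGTC). Cacnb4 is at chr2:52675810-52676109 on the minus strand, Kcnmb1 at chr11:33962763-33963062 and Kcnn3 at chr3:89519914-89520213 on the plus strand.
Cacnb4: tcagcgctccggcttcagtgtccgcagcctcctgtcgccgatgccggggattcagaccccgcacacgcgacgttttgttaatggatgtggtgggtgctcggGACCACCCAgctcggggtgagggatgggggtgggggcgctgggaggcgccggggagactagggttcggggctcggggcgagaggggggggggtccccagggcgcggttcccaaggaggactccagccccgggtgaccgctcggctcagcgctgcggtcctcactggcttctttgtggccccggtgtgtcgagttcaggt
Kcnmb1: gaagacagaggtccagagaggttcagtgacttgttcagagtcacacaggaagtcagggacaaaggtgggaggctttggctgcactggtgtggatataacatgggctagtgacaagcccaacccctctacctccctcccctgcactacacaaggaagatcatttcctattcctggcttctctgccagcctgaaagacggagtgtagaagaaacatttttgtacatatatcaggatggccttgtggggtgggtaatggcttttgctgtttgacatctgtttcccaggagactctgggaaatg
Kcnn3: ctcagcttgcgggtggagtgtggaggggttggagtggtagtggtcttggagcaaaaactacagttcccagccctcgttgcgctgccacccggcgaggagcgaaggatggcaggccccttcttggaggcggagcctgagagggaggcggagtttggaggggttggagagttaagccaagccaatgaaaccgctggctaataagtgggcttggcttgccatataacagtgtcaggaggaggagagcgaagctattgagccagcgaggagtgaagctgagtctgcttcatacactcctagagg
Of 3 tabulated Cacnb4 windows, for different starts, the printed one held the motif from 149 bases before the start and had 69.7% G and C with 27 CpG pairs, and the other 2 held no motif. The Kcnmb1 window had 49.7% G and C with 1 CpG pair and the Kcnn3 window 57.7% with 11, and neither held the motif. Over all windows of this length, 83 of 32851 (0.253%) held it. Among 138 windows of 102 channel symbols it was in 2, of Cacnb4 and Scn4a, and the windows tabulated for the Hedgehog targets Ptch1, Gli1 and Hhip, 2 in all, held 0. A match of letters is a description and not a binding site.

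Unrecombined cells were compared with wild type cells to set the neighbours of SmoM2 cells against cells of mice without Cre. No channel entry passed the threshold of edgeR's quasi-likelihood test, where 0% of all loci did. An unadjusted p under 0.05 was found for 5 of 68 entries (7.35%), against 541 of 14039 loci (3.85%), and DESeq2 and limma-voom also called 0 channel entries, where they called 0.556% and 0.178% of all loci. The median log2 fold change was 0.11 over the 68 entries and 0.00 over all loci. Small p values belonged to Kcnq5 (log2 -1.02 ± 0.409), Kcnv2 (3.17 ± 1.32) and Kcnn3 (1.74 ± 0.790), each with an adjusted p of 1.00. Kcnv2, a modulatory subunit that is silent by itself, had 3.73, 0.301, 3.31 and 3.43 CPM in unrecombined libraries and 0.0681, 0, 0.655 and 0.466 in wild type libraries, with unrecombined library 2 inside the wild type range. Kcnn3 had 10.1 to 27.5 CPM in unrecombined libraries and 2.09 to 9.68 in wild type libraries, with no overlap, and fibroblast markers were also higher there, at 5113 CPM or more in unrecombined and 3392 CPM or less in wild type libraries. The part of stromal cells in that difference was not tested.

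A group of 5 potassium channel genes, picked after their values were seen, was high in 2 of the 5 libraries with salivary gland transcripts, recombined library 2 and unrecombined library 2. Kcnj16, an inward rectifier subunit of secretory and renal epithelia, had 17.5 CPM in recombined library 2 and at most 0.0597 in the other recombined libraries, 20.4 CPM in unrecombined library 2 and at most 1.16 in the other unrecombined libraries, and at most 1.35 in wild type libraries. It counted as expressed through 4 libraries only, recombined 2, unrecombined 1 and 2 and wild type 2, all of them with salivary transcripts. Kcnma1, given above, reached 20.8 and 31.8 CPM in recombined library 2 and unrecombined library 2. Kcnt1, a sodium-activated channel whose entry also names mKIAA1422, had 1.72 and 8.37 CPM there, Kcne1 1.39 and 2.71, and Kcne2 1.80 and 3.17. In the other 10 libraries Kcnt1 stayed at or under 0.960 CPM, Kcne1 at or under 0.0387 and Kcne2 at or under 0.509. Wild type library 2, which held 3266 CPM of the salivary transcripts, had 7.62 CPM of Kcnma1 but 0 CPM of Kcnt1 and Kcne2. Salivary transcripts differed in whether they were also high in wild type library 2. Prol1 had 520 CPM in recombined library 2 and 567 in unrecombined library 2, against 1.94 in wild type library 2. The entry of Muc19 and Smgc had 262 and 1088 CPM, against 1.74. Others were not limited to that pair: the entry of Amy1 had 6573 and 38732.5 CPM there and 15585.5 in wild type library 2. Dcpp3 had 21.3 and 75.5 CPM, against 91.6, and Prb1 0.696 and 2.37 CPM, against 4.30. The part of salivary tissue in these values was not tested.

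**Figure D5:**
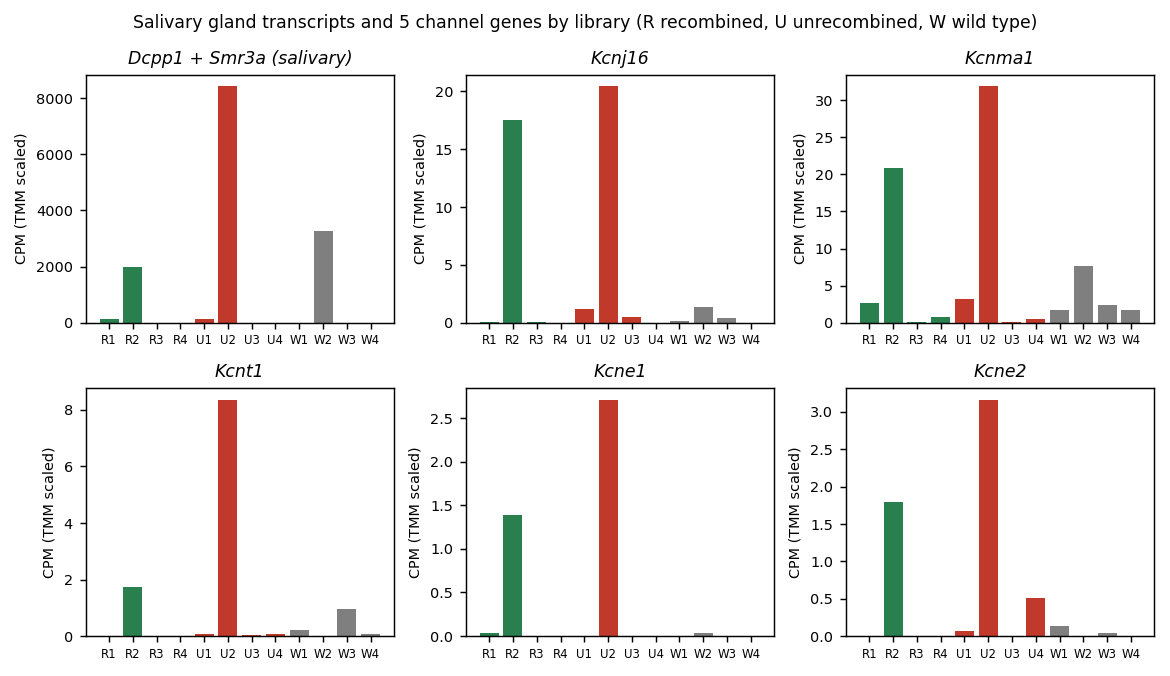
CPM (vertical axis, own scale per panel) of summed Dcpp1 and Smr3a and of 5 channel genes in the 12 libraries, recombined (R), unrecombined (U) and wild type (W), with a bar per library. Kcnj16, Kcnma1, Kcnt1, Kcne1 and Kcne2 are highest in unrecombined library 2, followed by recombined library 2.

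With the 5 salivary libraries left out, an alternative chosen after seeing the data, 2 recombined, 2 unrecombined and 3 wild type libraries remained. Of 77 channel entries then tested, 11 were called against wild type cells, where 6.92% of all loci were, and 8 against unrecombined cells, where 3.94% were. Among the called genes described above, Kcnmb1 (log2 1.73, adjusted p = 0.176) and Kcnt2 (-4.22, 0.123) were lost against wild type cells, and Kcnip3 (2.36, 0.0370) and Kcne4 (-4.13, 0.0259) were called. Against unrecombined cells Kcnmb1 (2.63, 0.128), Kcnip3 (2.59, 0.0593), Cacna1d (1.61, 0.0659), Scn7a (1.64, 0.0607) and Kcnt2 (-3.57, 0.230) were lost, and Kcnj8 was called (2.98, 0.0407). With recombined libraries 3 and 4 left out instead, which left 2 recombined libraries, 2 of 83 tested entries were called against wild type cells, where 1.66% of all loci were, Cacna2d1 (1.38, 0.0397) and Kcnmb1 (2.43, 0.0241). Against unrecombined cells 3 were called, where 1.88% of all loci were, Kcnmb1 (3.55, 0.00205), Kcnq5 (2.71, 0.00624) and Kcnn3 (-5.71, 0.0420).

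Other ion transport genes, a list of 65 of which 59 were found and 55 tested, gave 6 higher and 1 lower in recombined than in wild type cells, against 4.17% and 2.38% of all loci. Over unrecombined cells 4 were higher and 2 lower, against 3.08% and 2.14% of all loci, and none was called between unrecombined and wild type cells. Scnn1g, the gamma subunit of the epithelial sodium channel, had 4.45, 9.42, 12.4 and 9.52 CPM in recombined, 0.761, 6.33, 0.934 and 3.09 in unrecombined and 1.77, 1.51, 1.83 and 1.90 in wild type libraries. It rose over wild type cells by 2.35 ± 0.608 on the log2 scale (adjusted p = 0.0332) and did not pass over unrecombined cells (1.68 ± 0.592, adjusted p = 0.132). Trpv4, a calcium-permeable channel opened by cell swelling, had 1.85, 4.11, 3.23 and 11.3 CPM in recombined libraries, against 0.539 to 1.27 in unrecombined and 0.545 to 1.66 in wild type libraries. It rose by 2.50 ± 0.644 over wild type (adjusted p = 0.0326) and by 2.65 ± 0.648 over unrecombined cells (adjusted p = 0.0278).

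Pumps and couplers were also among the called genes of this list. Gja1, a connexin of gap junctions, averaged 669 ± 236 CPM in recombined, 192 ± 37.5 in unrecombined and 118 ± 17.2 in wild type cells and rose by 2.50 ± 0.252 over wild type (adjusted p = 0.000115). Atp1b3, a beta subunit of the sodium pump, averaged 421 ± 83.7, 258 ± 22.1 and 224 ± 11.2 CPM in the same order and rose by 0.91 ± 0.151 (adjusted p = 0.00270). Atp2a2, the calcium pump of the endoplasmic reticulum, rose by 0.63 ± 0.170 (adjusted p = 0.0409), and Nalcn, the sodium leak channel, by 4.22 ± 0.620 (adjusted p = 0.00132). Slc12a2, the cotransporter that loads secretory cells with chloride, was the gene that fell, to 923 ± 401 CPM in recombined cells, against 3478 ± 1560 in wild type cells (log2 -1.91 ± 0.416, adjusted p = 0.0147). These groups overlapped: wild type library 1 had 1276 CPM, below recombined library 2 at 1470. Slc12a2 averaged 2121 ± 973 CPM in unrecombined cells, and its change over them did not pass (-1.20 ± 0.408, edgeR adjusted p = 0.121). Over unrecombined cells Nalcn, Atp1b3, Trpv4 and Gja1 were higher, and Atp1b2, a sodium pump beta subunit, was among the lower (-2.09 ± 0.491, adjusted p = 0.0225).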

How the data were processed

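RNA was measured in 12 libraries of sorted mouse mammary epithelial cells, 4 in each of 3 groups. STAR, HTSeq 0.3.1 and the build mm9 are named in the submitters' processing notes. Options, strand setting and annotation are not given in the sources used here, so reads of overlapping or antisense genes cannot be separated. Per the file headers and its whole values, the deposited table gives raw counts of reads for each entry. Entries that name several loci were left out; the 139 of them that name a channel held 529 counts over all libraries, against 342293 in the channel entries used. Of these, 23 join several symbols. Exon lengths came from the GENCODE M21 annotation, matched by symbol for 128 of the 129 entries, and promoter windows from RefSeq.

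All single-locus entries were scaled with TMM and fitted in 1 model in edgeR 4.0.16 (R 4.3.3), with a mean per group, the default filter on low counts and robust quasi-likelihood dispersion. Tests were two-sided, with Benjamini-Hochberg adjustment over 14039 loci and a threshold of 0.05. The fit was tested on simulated counts. No pair of libraries of a group agreed within sampling noise.

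Genes named with values in every library are those called in a comparison (at most 12 rises and 8 falls), the 4 smallest p where fewer than 4 were called, the highest of each structural class, and the 3 nearest the expression rule on each side; others were chosen after their values were seen. A few genes that the rules pick are counted but not reported here. The members and lists were chosen with earlier results of these data known. Alternatives were DESeq2 1.42.0 (its size factors, its Wald test), limma-voom (limma 3.58.1), other filters, only the groups compared, a replicate block, entries with 1 symbol, libraries left out, and other expression rules. Same-numbered recombined and unrecombined libraries deviated together, with r from 0.219 to 0.357 across loci, against -0.238 to -0.00977 for different numbers, so the numbers pair these groups. The main fit does not use this pairing, so its p values between these groups treat the libraries as independent. Only the replicate block takes the numbers into account. Wild type numbers do not pair with them (same-number r from -0.031 to 0.135 with recombined and from 0.00855 to 0.279 with unrecombined libraries).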

Additional observations from a re-analysis of the deposited data

Results flagged for a closer look

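In 7 of the 60 groups of 4 libraries examined, over the named genes, 1 library stood apart from the other 3 by Dixon's ratio. Chance alone gives about 1 in 20 for normally distributed values. The ratio was taken on CPM without logs, and several of these genes lay near the floor, so that rate need not hold here. Wild type library 2 gave 4 of the 7. It had 6.15 CPM of Kcnt2, against 1.76 to 2.23 in the other wild type libraries, 45.5 CPM of Kcnj2 against 9.98 to 14.1, 1.16 CPM of Kcna6 against 0.136 to 0.305, and 1.51 CPM of Scn4a against 0 to 0.218. This library also held salivary gland transcripts, and their part in these values was not tested.

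In recombined libraries, Kcne4 had 3.97 CPM in library 1 against 0.108 to 0.577 in the others, and Cacng7 1.53 CPM in library 4 against 0 to 0.183. Kcnv2 had 0.301 CPM in unrecombined library 2 against 3.31 to 3.73 in the other unrecombined libraries.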

How the results depend on the processing

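The count of channel entries called between recombined and wild type cells was 9. It was 14 with the Wald test of DESeq2, which added 5 lower entries (Kcnab3, Kcne4, Kcnh1, Kcnj9, whose entry also names AK007011, and Kcns3) and called 11.5% of all loci (the cause was not tested), 2 without recombined libraries 3 and 4, and 6 to 11 when a library was left out. The count between recombined and unrecombined cells was 11. With the Wald test of DESeq2, which called 9.61% of all loci, it was 16 (10 higher and 6 lower). That test added Kcna1, Kcnab3, Kcng3, Kcnj8 and Kcnv2. The count was 3 without recombined libraries 3 and 4, a setting with fewer samples that called 1.88% of all loci. It was 6 to 15 when a library was left out, with 7 without recombined library 3 and 6 each without unrecombined library 1, 2 or 4. With the replicate block the counts were 10 and 12, adding Kcnh1 and Kcnab3, and the block changed no other call of a named gene in these comparisons. Since wild type numbers do not pair with recombined ones, the block against wild type cells joins libraries by number only. Between unrecombined and wild type cells the count was 0 under each alternative run. Of 523 values under alternatives, of the 11 called genes described in both comparisons and of Kcnq5, Kcnv2 and Kcnn3 between unrecombined and wild type cells, 454 kept direction and call, 61 lost the call, 8 gained it and none reversed. The 454 include values that were uncalled in the main fit and stayed so, and fits that left out a library of the group not compared. All alternatives reuse the same 12 libraries, so these numbers are no measure of how far the calls would repeat. Calls of described genes lost under other tools were Kcnj8 and Kcnt2 over wild type and Kcnip3 and Kcnt2 over unrecombined cells (limma-voom), and Kcnn3 over wild type and Kcne4 over unrecombined cells when only the groups compared were fitted, where Kcnt2 over unrecombined cells was under the filter on low counts and not tested. The number of expressed entries, 52, was 65 at 0.5 CPM, 37 when all 4 libraries of a group had to reach 1 CPM, and 49 to 51 when a library was left out. Depth limits the low genes: a count of 0 allows a level of up to 0.0896 to 0.162 CPM, 3 counts by library, counting error only.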
